A study of Homo sapiens with 6 samples.

Results

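The HOX genes were followed in H1 human embryonic stem cells at day 2 of hematopoietic differentiation, in WT cells and in cells carrying SNAI1 deletion. The members were 38 protein-coding HOX symbols, matched by name among the 37803 gene symbols found once in both deposited expression tables. They comprised 10 HOXA, 10 HOXB, 9 HOXC and 9 HOXD genes. The family was singled out after its levels in SNAI1-deleted cells against WT had been seen, so the differences from WT of its members are a description. No p-value of a member is given for them, and counts of calls stand only beside the share of all genes called. The gene lists further on were also chosen with earlier results of these data known. The p-values and counts of their genes are therefore a description too.

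H1 is an established human embryonic stem cell line. All cells, WT included, were exposed to activin A and BMP4 in a chemically defined medium for the 2 days, a schedule that drives pluripotent cells toward mesoderm. SNAI1 encodes a zinc finger repressor best known for silencing epithelial genes, and the comparison asks what its deletion changes as the cells leave pluripotency. The 6 libraries fell into 3 groups of 2: WT, SNAI1_KO_1 and SNAI1_KO_2, with no other allele or agent in the labels. The labels give each deletion group a number without saying what it marks. Each of the 2 tables held 1 library of every group. The tables differ in length, with 38100 and 58324 rows, and were treated as normalized separately. Differences of a knockout library were therefore taken only from the WT library of its own table, which gave 4 within-table differences per gene. No label says that the libraries came from separate cultures, so the p-values below measure only the spread between these libraries, which may be technical.

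HOX genes encode homeodomain transcription factors that give cells their position along the head to tail axis. They lie in 4 clusters, HOXA to HOXD, and are numbered by paralog group, low numbers at the 3′ end of a cluster and high numbers at the 5′ end. Genes at the 3′ end are generally the earliest to be switched on when mesoderm forms at gastrulation, and those toward the 5′ end follow. Caudal factors, retinoic acid, and the Trithorax and Polycomb complexes are classical regulators of the clusters, and the TALE homeodomain proteins (PBX, MEIS and PKNOX) bind DNA together with HOX proteins.

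The DNA-binding part of each protein is encoded by a homeobox, and those of HOXB2, HOXB6, HOXB7 and HOXB9 are shown to let their likeness be seen. The homeobox of HOXB3 is left out here. Each stretch holds 180 bases, written 5′ to 3′ on the coding strand from GENCODE release 29 transcripts of the GRCh38 genome, which is not the build named in the submitters' notes. The capitals mark the match to TGGTTNCANAANNGNNGN, written from the amino acids at the core of the recognition helix, which occurs, searched on the coding strand, in transcripts of 0.732% of 19669 protein-coding gene names.
HOXB2: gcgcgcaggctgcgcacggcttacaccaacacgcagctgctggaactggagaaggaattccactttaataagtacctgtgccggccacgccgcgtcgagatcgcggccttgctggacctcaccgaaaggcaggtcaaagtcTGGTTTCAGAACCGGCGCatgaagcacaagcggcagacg
HOXB6: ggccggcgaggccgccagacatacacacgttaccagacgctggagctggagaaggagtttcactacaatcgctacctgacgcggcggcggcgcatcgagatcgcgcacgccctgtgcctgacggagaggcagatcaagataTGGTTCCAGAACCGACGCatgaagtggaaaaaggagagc
HOXB7: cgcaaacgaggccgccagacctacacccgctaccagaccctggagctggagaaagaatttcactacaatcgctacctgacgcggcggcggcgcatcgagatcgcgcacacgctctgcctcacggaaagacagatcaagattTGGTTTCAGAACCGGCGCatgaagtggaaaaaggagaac
HOXB9: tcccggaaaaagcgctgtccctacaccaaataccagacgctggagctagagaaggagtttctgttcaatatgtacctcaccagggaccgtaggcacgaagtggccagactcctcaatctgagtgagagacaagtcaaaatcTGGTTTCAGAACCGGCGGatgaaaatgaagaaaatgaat
HOXB6 and HOXB7 were the most alike of the 45 HOXB pairs, with 88.9% of positions identical and an unbroken identical run of 51 bases, the longest of any pair. HOXB2 and HOXB6 matched at 66.1% of positions with a longest run of 11 bases, and HOXB6 and HOXB9 at 63.3% with a run of 17. HOXB4 and HOXB5 shared a run of 50 bases. How the counting treated reads that fit more than 1 gene is not given in the sources used here. Which members this affects most was not tested, since homeoboxes of other clusters and the rest of each transcript were not compared.

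Among the 38 members, nearly all expression came from the HOXB cluster, and it was lower in every library labelled as SNAI1 deleted. Levels are FPKM, fragments scaled by transcript length and library total, a measure per length that can be compared between genes. The FPKM of the 10 HOXB members summed to 56.7 in WT of the first table and 78.2 in WT of the second. In the first table the sum was 7.21 in SNAI1_KO_1 and 5.26 in SNAI1_KO_2, and in the second it was 3.16 and 4.52. The knockout libraries thus held between 4.04% and 12.7% of the HOXB sum of their WT library, with a mean of 7.96%. The 28 members of the other clusters together reached less than 2 FPKM in any library, so that HOXB made up 98.9% and 97.9% of the summed FPKM of the 38 members in WT and between 81.5% and 91.2% in the knockout libraries.

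All 10 HOXB members were lower than WT in all 4 within-table differences. Of the 30248 symbols above 0 in any library, 22.3% were. The family was chosen on this contrast, so nothing is read from the count. In WT, 7 members reached 1 FPKM in both libraries (HOXB2, HOXB3, HOXB5, HOXB6, HOXB7, HOXB8 and HOXB9). In each knockout group only HOXB6 did, and at 0.5 FPKM the WT count was again 7 while HOXB9 joined HOXB6 in both knockout groups. RNA was measured in bulk, so fewer cells with HOXB transcripts and less transcript per cell cannot be told apart.

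**Figure D1:**
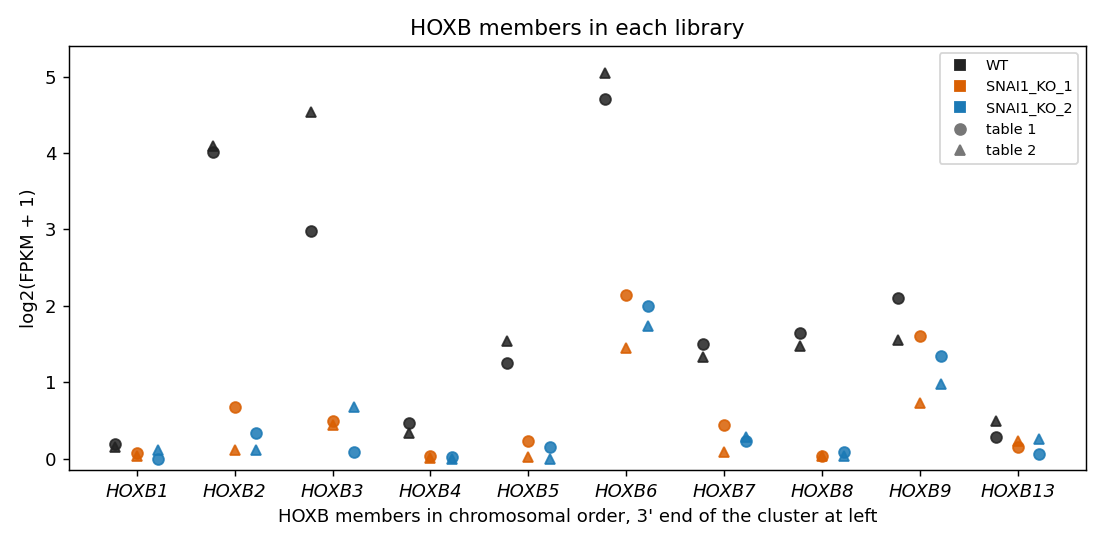
Expression of the 10 HOXB members as log2(FPKM + 1), in chromosomal order from the 3′ end of the cluster, with 1 point per library, coloured by group and shaped by table. The WT points of HOXB2, HOXB3 and HOXB6 stand highest, between 6.90 and 32.0 FPKM, and no knockout library exceeds 3.41 FPKM for any member.

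At the 3′ end of the cluster, HOXB2, a paralog group 2 gene known from hindbrain patterning, was with HOXB8 the member with the least left, a mean of 1.67% of the WT level. Its WT values were 15.2 and 16.1 FPKM, against 0.606 and 0.0790 in SNAI1_KO_1 and 0.260 and 0.0780 in SNAI1_KO_2. All 4 knockout libraries were below both WT libraries, as they were for 12.2% of the symbols above 0 (and above both for 12%), and they held between 0.485% and 3.98% of their WT library. HOXB3, its neighbour in paralog group 3, was 6.90 FPKM in WT of the first table and 22.2 in WT of the second. It was 0.408 and 0.364 FPKM in SNAI1_KO_1 and 0.0608 and 0.599 in SNAI1_KO_2. HOXB3 thus had the widest WT spread of the HOXB members in FPKM, 14.5 ± 10.8 (SD, n = 2), yet its lowest WT value was far above its highest knockout value. HOXB1, the first gene of the cluster, was near 0 everywhere, at 0.144 and 0.116 FPKM in WT and between 0 and 0.0870 in the knockout libraries. HOXB4, known for its use in expanding blood progenitors, was also low, with 0.386 and 0.269 FPKM in WT and between 0 and 0.0250 in the knockout libraries.

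In the middle of the cluster, HOXB6 was the highest HOX member in every group. It was 25.2 and 32.0 FPKM in WT, 3.41 and 1.74 in SNAI1_KO_1, and 3.002 and 2.34 in SNAI1_KO_2. Between 5.44% and 13.5% of the WT level remained, and HOXB6 made up between 40.1% and 50.3% of the summed FPKM of the members in all 6 libraries. HOXB5 was 1.38 and 1.92 FPKM in WT and between 0 and 0.172 in the knockout libraries. HOXB7 was 1.83 and 1.52 in WT and between 0.0618 and 0.353 in the knockout libraries. HOXB8 was 2.14 and 1.77 in WT and between 0.0216 and 0.0618 in the knockout libraries, a mean of 1.66% of the WT level. The WT values of these 3 genes, neighbours of HOXB6 in the central part of the cluster, were all above 1 FPKM and their knockout values all below 0.5.

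HOXB9, toward the 5′ end, was the member besides HOXB6 that stayed above 0.5 FPKM in every knockout library. HOXB9 was 3.29 and 1.93 FPKM in WT, 2.05 and 0.665 in SNAI1_KO_1, and 1.53 and 0.976 in SNAI1_KO_2. It was lower than WT within each table, at 34.5% to 62.4% of the WT level, but the first-table SNAI1_KO_1 library was above second-table WT. Since the other members fell further, the share of HOXB9 in the summed FPKM of the members was 5.74% and 2.41% in WT and between 17.1% and 26.0% in the knockout libraries. HOXB13, which lies apart from the rest at the 5′ end and is known from the prostate and the tail end of the embryo, was 0.224 and 0.410 FPKM in WT and between 0.0450 and 0.200 in the knockout libraries. The mean share of the WT level left was 48.6% for HOXB9, 39.9% for HOXB13 and, at the other end of the cluster, 33.7% for HOXB1, the last 2 from values under 0.5 FPKM.

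On the log2(FPKM + 1) scale, the median of the mean within-table differences over the 10 HOXB members was -1.23, while the median difference over the 13909 genes tested was -0.05. The HOXB median was -3.03 with a pseudocount of 0.1 and -0.20 with 10, and it includes 6 members that the filter on tested genes leaves out. Genes entered the model at a mean of at least 1 FPKM over the 6 libraries, and 4 of the 38 members passed, HOXB2, HOXB3, HOXB6 and HOXB9, mostly through their WT level. Their log2 differences of both knockout groups from WT, with the table as a block in limma, were -3.75 ± 0.17 (SE) for HOXB2, -3.33 ± 0.33 for HOXB3, -3.04 ± 0.21 for HOXB6 and -0.66 ± 0.16 for HOXB9. Ordered from the largest fall, they took places 3, 6, 10 and 679 of 13909. At an adjusted p under 0.05, 15.4% of all genes were called lower, and so were these 4. For SNAI1_KO_1 alone it was 10.9% of all genes and 3 members, and for SNAI1_KO_2 alone 12% and 3, without HOXB9 in either. HOXB9 also lost its call in both groups together when any 1 library other than first-table SNAI1_KO_1 was left out, with log2 differences from -0.76 to -0.55 over the 6 omissions. With genes from a mean of 0.1 FPKM admitted, it was 9.09% of all genes and 7 of 11 members, HOXB5, HOXB7 and HOXB8 in addition. The family was chosen on this contrast and its members passed the filters mostly through WT, so these counts support nothing. Both knockout groups share their WT libraries, so their differences from WT are not independent of each other.

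The contrast between the knockout groups was not used to choose the family. It called 0% of all genes and none of the 4 members, of which HOXB2 and HOXB3 were under 1 FPKM in every knockout library, where log2(FPKM + 1) leaves little room for a difference. No member reached an unadjusted p under 0.05, and the adjusted p was 0.9996 for each by limma with Benjamini-Hochberg adjustment. The log2 difference of SNAI1_KO_2 from SNAI1_KO_1 was -0.18 for HOXB2 (95% interval -0.68 to 0.33) and -0.09 for HOXB3 (-1.04 to 0.86). It was 0.07 for HOXB6 (-0.54 to 0.69) and -0.01 for HOXB9 (-0.48 to 0.46). The intervals rest on a spread pooled over all 3 groups, WT included.

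Outside HOXB, 111 of the 168 values were listed at 0, 18 were at 0.1 FPKM or more, and none reached 0.5. HOXD1 held the highest of them. It was listed at 3.59e-05 and 0.394 FPKM in WT (first and second table), against 0.179 and 0.260 in SNAI1_KO_1 and 0.281 and 0.434 in SNAI1_KO_2. The groups overlapped. HOXD13, the last gene of its cluster, was 0.192 and 0.379 FPKM in WT and between 0.0693 and 0.122 in the knockout libraries, a mean of 42.7% of the WT level, and HOXA3 was 0.318 in the first-table SNAI1_KO_1 library and at most 0.106 elsewhere. In HOXC, HOXC13 was the highest, at 0.156 FPKM in the second-table SNAI1_KO_2 library. HOXA6, HOXC5, HOXC6, HOXC8, HOXC10, HOXC11, HOXD8 and HOXD12 were listed at 0 in all 6 libraries.

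The other members of the HOXA cluster (HOXA2, HOXA4, HOXA5, HOXA7, HOXA9, HOXA10, HOXA11 and HOXA13) ranged from 0 to 0.177 FPKM. HOXC4, HOXC9 and HOXC12 stayed at or under 0.0351 FPKM, and HOXD3, HOXD4, HOXD9, HOXD10 and HOXD11 at or under 0.163. Of the 28 members outside HOXB, 2 HOXA and 4 HOXD members were lower than WT in all 4 within-table differences, and no HOXC member was. Among symbols above 0 in any library, 22.3% were lower in this way, so nothing is read from these counts. None of the 38 was higher in all 4, as 18% of symbols above 0 were, but the 8 members listed at 0 throughout could not be. HOXA10 and HOXD11 count as lower only through WT values of 2.2e-07 and 4.23e-12 FPKM against 0 in 1 of the tables. The tables give no counts, so the depth behind these values is unknown.

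**Figure D2:**
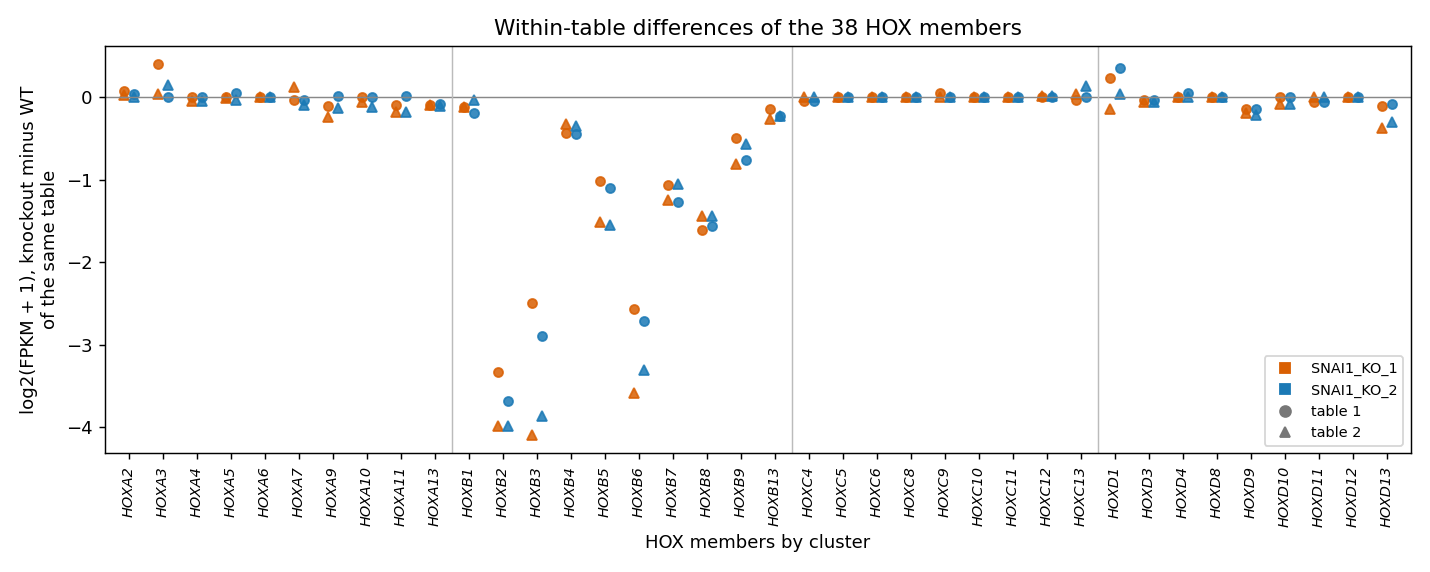
Difference of each knockout library from the WT library of its own table, in log2(FPKM + 1), for the 38 HOX members grouped by cluster, with 4 points per gene. The points of the 10 HOXB members all lie below 0, down to -4.09 for HOXB3, and the points of the other clusters stay within 0.5 of 0.

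Within the paralog groups of HOXB2, HOXB3, HOXB6 and HOXB8, the analysed members of other clusters stayed low in every library. Their highest value was 0.0563 FPKM in paralog group 2, by HOXA2, and 0.318 in paralog group 3, by HOXA3. In paralog groups 6 and 8 they were listed at 0 throughout.

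The RNAs transcribed within the clusters were described next, since several overlap HOX exons. The library kit does not mark strand, so reads of a gene and of its antisense partner cannot be told apart where exons overlap. In GENCODE release 29, HOXB6 shares 433 exon bases (16.6% of its exon length) with HOXB3 transcripts on the same strand and 425 (16.3%) with HOXB-AS3 on the opposite strand, and HOXB2 shares 87 (3.72%) with HOXB-AS1. HOXB3 shares 433 (5.81%) with HOXB6, 374 (5.02%) with HOXB-AS1, 159 (2.13%) with HOXB4 and 77 (1.03%) with HOXB-AS3. By share of exon length, HOXB6 is the most uncertain of HOXB2, HOXB3 and HOXB6 on this account. HOXB-AS1, an antisense RNA between HOXB2 and HOXB3, was 2.67 and 1.39 FPKM in WT, was listed at 0 in both SNAI1_KO_1 libraries and was 0 and 0.214 in SNAI1_KO_2. HOXB-AS3 was 0.272 and 3.31 FPKM in WT and 0.798 in the first-table SNAI1_KO_1 library, and it was listed at 0 in the other knockout libraries. HOXB-AS1 was thus lower in all 4 comparisons, whereas HOXB-AS3 was higher than WT in 1 of them.

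HOTAIRM1, a noncoding RNA at the 3′ end of the HOXA cluster known from myeloid cells, moved the other way. It was 0.491 and 0.551 FPKM in WT, 6.05 and 4.98 in SNAI1_KO_1, and 12.96 and 6.76 in SNAI1_KO_2. It rose in both knockout groups together by 2.43 ± 0.20 on the log2 scale (adjusted p = 0.00115, limma with Benjamini-Hochberg adjustment) and was higher in 4 of 4 comparisons. HOTAIRM1 overlaps a protein-coding gene on the other strand, so the transcript behind its reads is uncertain. Of the 27 RNAs on the list of noncoding RNAs in the clusters, 18 were in both tables and 2 were tested. HOTAIRM1 was called higher, where 15.8% of all genes were, and PRAC2, with values from 1.10 to 3.60 FPKM, was not called. The other 9 listed RNAs, the microRNA genes MIR10A, MIR10B and MIR196B among them, did not occur once in both tables.

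Of 24 genes beside the clusters that were tested, 7 rose, 4 fell and 13 were not called, with a median log2 difference of -0.05, as over all genes, of which 15.8% rose and 15.4% fell. The 11 calls were 6, 7 and 6 when WT, SNAI1_KO_1 or SNAI1_KO_2 of the first table was left out, 2, 7 and 7 for those of the second, and 2 when the block was dropped. Beside HOXB, PRAC1, between HOXB9 and HOXB13, was 5.45 and 2.57 FPKM in WT and 10.1, 7.03, 8.77 and 11.4 in the knockout libraries, a rise of 1.09 ± 0.24 (adjusted p = 0.0250, limma). That call was lost without SNAI1_KO_1 of either table or second-table WT, with log2 differences from 0.69 to 1.48 over the omissions. NFE2L1, a stress-response transcription factor at the 3′ side of HOXB, rose by 0.38 ± 0.065, a call lost without second-table WT and when the block was dropped. CBX1 and SNX11, which lie between it and the cluster, were not called, with log2 differences of -0.15 and 0.22.

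Beside HOXA, SKAP2, a signaling adaptor next to the 3′ end, was 1.74 and 1.26 FPKM in WT and between 6.47 and 8.64 in the knockout libraries, a rise of 1.76 ± 0.097 (adjusted p = 0.000380, limma). EVX1, a homeobox gene of the posterior primitive streak at the 5′ end of HOXA, was 12.1 and 38.9 FPKM in WT. It was 31.7 and 54.1 in SNAI1_KO_1 and 31.3 and 66.1 in SNAI1_KO_2, a rise of 0.96 ± 0.17 (adjusted p = 0.0124, limma) that lost its call without the first-table SNAI1_KO_2 library. The 10 HOXA members analysed, which lie between SKAP2 and EVX1, were all under 0.5 FPKM. The largest fall beside any cluster was in LNPK, an endoplasmic reticulum protein near HOXD, by 0.84 ± 0.15, a call that was lost without either WT library.

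**Figure D3:**
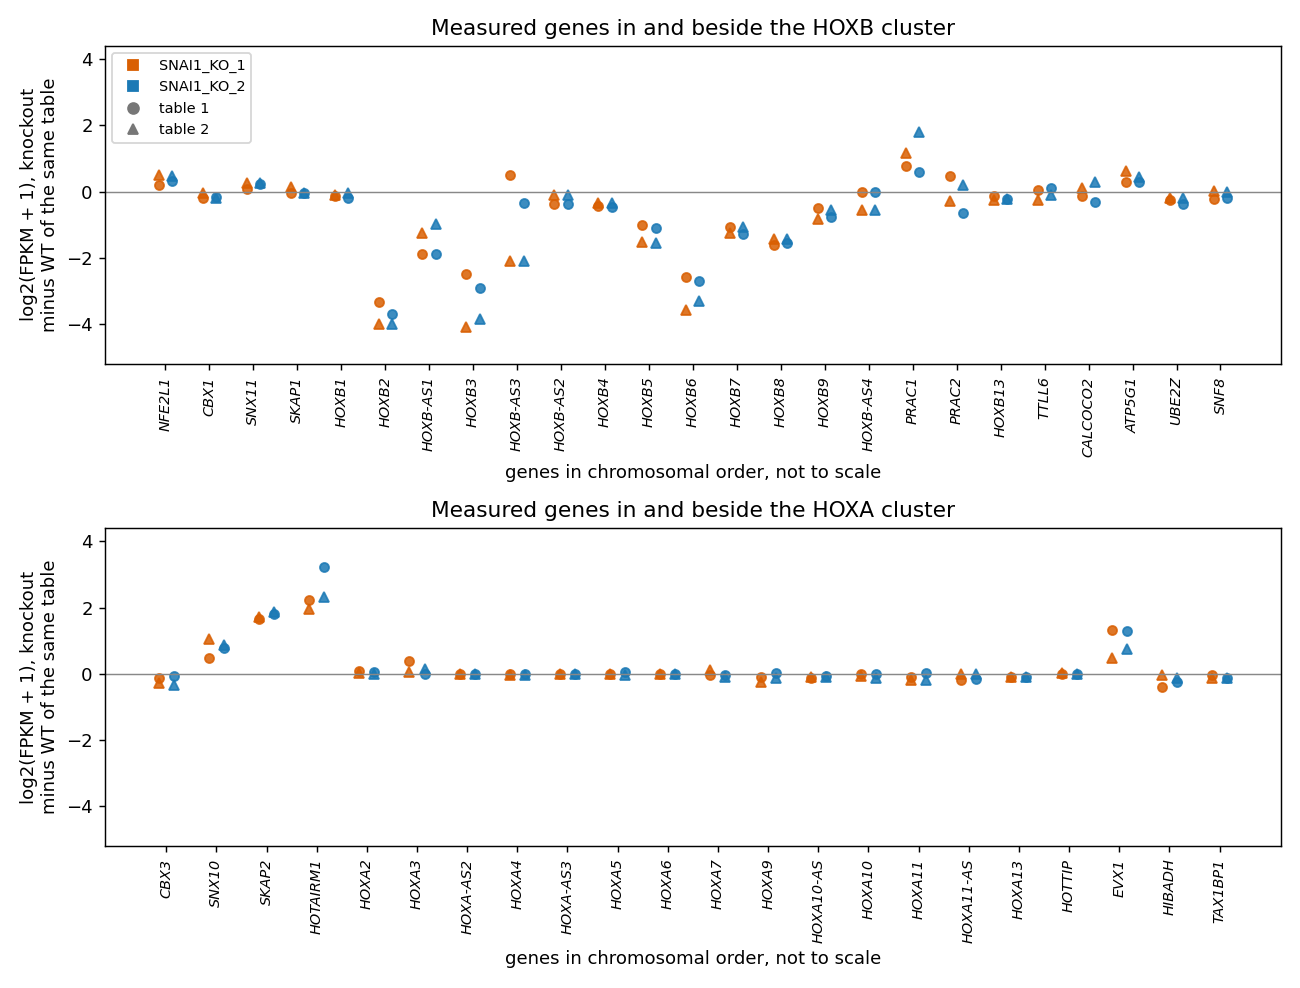
Difference of each knockout library from WT of its own table, in log2(FPKM + 1), for measured genes in chromosomal order in and beside the HOXB cluster (upper panel) and the HOXA cluster (lower panel), not to scale. HOXB2 to HOXB9 lie below 0, PRAC1 beside HOXB9 lies above 0, and in the lower panel SKAP2, HOTAIRM1 and EVX1 lie above 0 around HOXA members near 0.

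The caudal factors CDX1 and CDX2, homeodomain proteins that activate posterior HOX genes, were higher where HOXB members were lower. CDX1 was 1.07 and 2.15 FPKM in WT, 22.03 and 19.7 in SNAI1_KO_1, and 21.0 and 24.9 in SNAI1_KO_2. CDX2 was 0.822 and 1.60 in WT, 8.49 and 5.08 in SNAI1_KO_1, and 6.92 and 10.6 in SNAI1_KO_2. For each gene all 4 knockout libraries were above both WT libraries, as they were for 12% of the symbols above 0. CDX1 rose by 3.16 ± 0.16 (adjusted p = 0.000324, limma) and CDX2 by 1.97 ± 0.27 (adjusted p = 0.00568, limma) on the log2 scale. The call of CDX2 was lost without the first-table WT library, where the difference was 1.69. CDX4, the third caudal gene, was between 0.269 and 0.963 FPKM in all 6 libraries and below the filter. Of the 6 caudal and ParaHox genes listed, the 2 tested were called higher, where 15.8% of all genes were. GSX1 and PDX1 were listed at 0 in every library.

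Among the TALE cofactors, MEIS3 was higher and MEIS1 and MEIS2 were lower in every knockout library. MEIS3 was 25.7 and 36.6 FPKM in WT and between 54.2 and 99.6 in the knockout libraries, a rise of 1.24 ± 0.083 (adjusted p = 0.000646, limma). MEIS2 was 2.13 and 2.86 in WT and between 0.0838 and 0.369 in the knockout libraries, and MEIS1, a partner of HOX proteins in blood progenitors, was 0.989 and 0.748 in WT and between 0.160 and 0.354. Both MEIS1 and MEIS2 were under the filter at a mean of 1 FPKM and so were not tested there. For each, all 4 knockout libraries were below both WT libraries, as they were for 12.2% of the symbols above 0. PBX2, the TALE partner with the highest WT level measured, was 58.4 and 61.3 FPKM in WT and between 36.3 and 41.8 in the knockout libraries, a fall of 0.57 ± 0.060 (adjusted p = 0.00254, limma). Of 5 TALE genes tested, 1 rose, 2 fell (PBX2 and PBX4) and 2 were not called, PKNOX1 and PKNOX2, beside 15.8% of all genes that rose and 15.4% that fell. The median log2 difference of the 5 was -0.55. PBX4 lost its call with any 1 library left out. Without the block for the table, none of the 5 was called. PBX3 is listed more than once and was left out.

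Of 12 genes of the retinoic acid pathway that were tested, 3 rose, 5 fell and 4 were not called, where 15.8% and 15.4% of all genes rose and fell. The median log2 difference was -0.14. CYP26A1, an enzyme that degrades retinoic acid, was between 198 and 267 FPKM in all 6 libraries, with a log2 difference of 0.04 ± 0.13 that was not called. CYP26B1 and CYP26C1, its relatives on the list, were under the filter and not tested. CYP26B1 was 1.13 and 1.27 FPKM in WT and between 0.127 and 0.333 in the knockout libraries. CYP26C1 was 0.279 and 0.449 in WT and between 0.0613 and 0.300. Both were lower in all 4 within-table differences, as 22.3% of symbols above 0 were. RARB, a receptor gene that retinoic acid induces directly, stayed between 0.0170 and 0.475 FPKM. CRABP1 and CRABP2, which encode binding proteins for retinoic acid in the cell, moved apart. CRABP1 rose from 50.5 and 43.1 FPKM in WT to between 113 and 130 in the knockout libraries, by 1.38 ± 0.089, and CRABP2 fell from 175 and 253 to between 94.9 and 166, by 0.71 ± 0.060. DHRS3, a retinaldehyde reductase, rose by 1.44 ± 0.19 from 0.260 and 0.308 FPKM to between 1.46 and 4.22. The receptor genes RARA, RARG and RXRA fell by 0.32 to 0.44, with STRA6, a retinol transporter, by 0.58, and ALDH1A3, which makes retinoic acid, rose by 0.65. Without either WT library 3 of the pathway's genes were called, 4 and 5 were without first-table and second-table SNAI1_KO_1, and only 2, both higher, when the block for the table was dropped. CRABP1, CRABP2 and DHRS3 kept their call in every omission, and each of the other 5 lost it in at least 1.

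**Figure D4:**
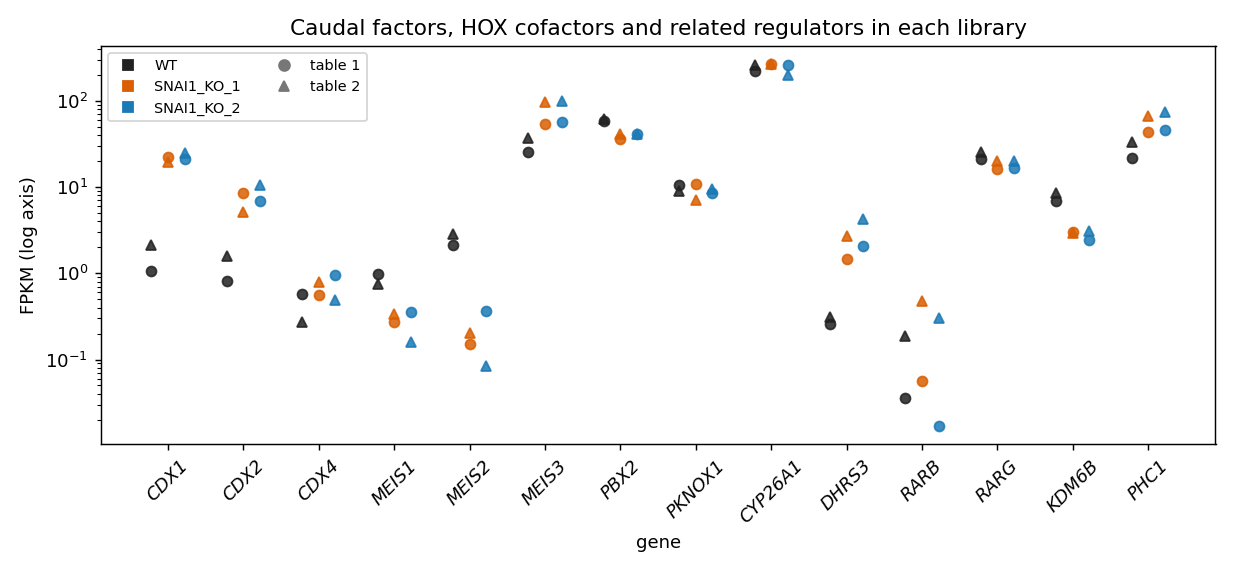
FPKM on a log axis in each of the 6 libraries for caudal factors, TALE cofactors, retinoic acid genes and chromatin regulators named in the text, coloured by group and shaped by table. CDX1, CDX2, MEIS3, DHRS3 and PHC1 are higher and MEIS1, MEIS2, PBX2, RARG and KDM6B lower in all 4 knockout libraries than in either WT library, while the groups overlap for CDX4, PKNOX1, CYP26A1 and RARB. Of all symbols above 0, 12% were higher and 12.2% lower in this way.

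Of 27 Trithorax and Polycomb genes, all of which were tested, 4 rose, 10 fell and 13 were not called, with a median log2 difference of -0.13. The share of all genes that rose was 15.8%, about that of the list, and 15.4% fell. KDM6B, a demethylase that removes the repressive H3K27 methyl mark, had the largest fall. It was 6.89 and 8.62 FPKM in WT, 3.02 and 2.90 in SNAI1_KO_1, and 2.41 and 3.09 in SNAI1_KO_2, a fall of 1.18 ± 0.12 (adjusted p = 0.00226, limma). Its relative KDM6A rose by 0.48 ± 0.079, a call lost without either WT library. Among methyltransferases of active chromatin and their partners, KMT2B fell by 0.44, MEN1 by 0.46, ASH2L by 0.41 and DOT1L by 0.39, while KMT2A, which maintains HOX expression in blood cells, was not called at 0.20.

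Of the Polycomb complex that writes the H3K27 mark, EED fell by 0.49 ± 0.092, and EZH2 and SUZ12 were not called, at 0.01 and 0.03. PHF19, an accessory subunit, rose by 0.97 ± 0.17. Of the complex that ubiquitinates H2A, PHC1 rose from 21.5 and 33.4 FPKM in WT to between 43.8 and 74.7, by 1.04 ± 0.054 (adjusted p = 0.000341, limma). BMI1 fell by 0.83 ± 0.11, CBX2 by 0.62 ± 0.065, RNF2 by 0.38 and RING1 by 0.34. The count of 14 called genes was 5 without first-table WT, 7 without second-table WT, 9 without the first-table SNAI1_KO_1 library, and 2 when the block was dropped. KDM6B, CBX2 and PHC1 kept their call whichever library was left out, and the other 11 lost it in at least 1 omission.

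The other facts that move with these results are given here. SNAI1 itself was 37.1 and 36.4 FPKM in WT, 51.6 and 47.8 under the label SNAI1_KO_1, and 68.6 and 55.0 under the label SNAI1_KO_2, higher by 0.58 ± 0.074 (adjusted p = 0.00461, limma). A frameshift deletion need not lower the transcript, so the labels stay unchecked by this level, and each direction above compares libraries labelled WT with libraries labelled as deleted. Mesoderm markers were expressed in every library, with MIXL1 between 388 and 462 FPKM. Of 7 tested, T (brachyury) rose, 5 fell (EOMES, MESP1, APLNR, PDGFRA and HAND1), and their summed FPKM was 1545 to 1609 in WT, 1055 to 1133 in SNAI1_KO_1 and 1060 to 1114 in SNAI1_KO_2. Of 5 pluripotency genes, 3 rose (POU5F1, NANOG and DPPA4), with sums of 629 to 737, 855 to 1075 and 889 to 1165 in the same order of groups. Beside these and the marker lists that follow, 15.8% of all genes rose and 15.4% fell.

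Of the presomitic list, 4 of 5 genes were tested, MSGN1 and RSPO3 rose and DLL3 fell, with sums of 119 to 126, 71.8 to 80.5 and 77.5 to 91.4 FPKM, and MEOX1 at or under 0.0918. DLL3, at 110 and 101 FPKM in WT, made up most of these sums. Of 4 endoderm genes, SOX17 rose, FOXA2 and CER1 fell, and HHEX was not called, at 0.63. The sums were 2824 to 3336, 1735 to 1924 and 1273 to 1929, most of them CER1, which was 3262 and 2550 FPKM in WT. Of 3 amnion and trophoblast genes tested among 6 listed, TFAP2A and GABRP rose and GATA3 fell, with sums of 28.3 to 43.8, 28.2 to 36.4 and 29.6 to 49.4, and CGA at or under 0.0934. ISL1, not tested, was 1.82 and 1.04 FPKM in WT and between 0.187 and 0.597 in the knockout libraries. Of 4 neural genes only OTX2 was tested and it was not called, PAX6 was 1.29 and 2.38 FPKM in WT and at most 0.184 in the knockout libraries, SOX1 was listed at 0 in 5 of the 6 libraries, and the sums were 81.3 to 95.9, 69.2 to 74.2 and 50.4 to 72.0. Of 5 hemogenic endothelium genes only RUNX1 was tested and it was not called, at 0.45, and GATA1 was at or under 0.250 FPKM. CD34, not tested, was 1.15 and 1.11 FPKM in WT and between 0.0423 and 0.201 in the knockout libraries. RUNX1 made up most of the sums, which were 4.77 to 5.23, 5.12 to 6.25 and 4.65 to 6.995. The part of these cell type differences in the HOX values was not tested.

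Total FPKM per library ran from 603399 to 633851, and 13553 to 14063 symbols reached 1 FPKM. Estimated from the lowest values, the depth of the knockout libraries was 0.874 to 1.11 times that of WT in their own table. Libraries of 1 group in the 2 tables correlated at 0.956 to 0.961 across genes, which are not independent replicates.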

How the data were processed

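RNA-seq was performed on 6 H1 cell libraries at day 2. The authors deposited FPKM values per gene symbol in 2 tables, with the unit stated inside the second table only. The submitters' processing notes name BWA, Bowtie, RSEM and hg19 without roles, and the sources differ in the doses of activin A and BMP4. Symbols listed once in both tables were kept. Values were transformed to log2(FPKM + 1), genes with a mean of at least 1 FPKM were tested, and a model with 3 group means and the table as a block was fitted in R 4.3.3 by limma 3.58.1 (lmFit, contrasts.fit, eBayes with trend). Benjamini-Hochberg adjustment covered all 13909 genes, with a threshold of 0.05. The model left 2 residual degrees of freedom. Fold changes on this scale understate those of low genes. Libraries are paired by the table they share, and between-table differences of the 3 groups correlated at 0.616, 0.666 and 0.676 across genes. The script was tested on simulated data.

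The HOX members and the gene lists were chosen with earlier results of these data known. Members at 0.5 FPKM or more in any library were given with their values and the others by range, and from each list called genes and a few listed by name (CDX1, CDX2, CDX4, RARB, CYP26A1, MEIS1, MEIS2, HOTAIRM1, HOXB-AS1 and HOXB-AS3) were named. HOXD1, HOXD13, HOXA3, HOXC13 and list genes that were not called were named after their values were seen. Homeobox sequences were read from GENCODE release 29 and serve only to show sequence. Some items, 1 further HOX gene among them, are not reported here, so HOX counts cover the 38 symbols. Read depth is unknown, since the tables hold no counts.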

Additional observations from a re-analysis of the deposited data

Results flagged for a closer look

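PCGF2, a Polycomb gene, was below WT in both SNAI1_KO_1 libraries (17.7 against 19.0 FPKM and 35.1 against 36.6) and above WT in both SNAI1_KO_2 libraries (19.6 and 38.1 FPKM). The log2 difference of SNAI1_KO_2 from SNAI1_KO_1 was 0.12, with an adjusted p of 0.9996 by limma.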

How the results depend on the processing

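The counts of called HOX members (4 for both knockout groups, 3 for each alone) were 7, 6 and 6 with a mean of at least 0.1 FPKM, and 7 for both groups with no filter, where all symbols above 0 in any library were tested. Without the block for the table they were 3, 3 and 3, HOXB9 being lost, and leaving out 1 library at a time gave 3 to 4 for both groups. The contrast of SNAI1_KO_2 with SNAI1_KO_1 called 0 HOX members and 0 genes in all under every alternative run. The HOXB median was -3.03 with a pseudocount of 0.1 and -0.20 with one of 10, and -1.29 to -1.11 with 1 library left out, while the summed share ran from 4.91% to 11.01%. At 2 FPKM the counts of members reached in both libraries were 3 in WT, 0 in SNAI1_KO_1 and 1 in SNAI1_KO_2, and at 0.5 FPKM both knockout groups had 2. Without the block, calls were 0 for the TALE list and 2 each for the retinoic acid, flanking and Trithorax and Polycomb lists. With no filter they were 1 for the caudal list, 5 for retinoic acid, 1 for flanking and 6 for Trithorax and Polycomb genes. With a mean of at least 0.1 FPKM the TALE list had 5 and the noncoding list 2. Of all genes, 4348 of 13909 were called in the main model and 1065 of 13909 without the block. With no filter it was 2139 of 30248, and with a mean of at least 0.1 FPKM 4089 of 21302. Requiring a log2 difference of at least 1 left 1 TALE gene and 2 in each of the retinoic acid, flanking, and Trithorax and Polycomb lists. Leaving out 1 library gave 1 to 2 calls for the caudal list, 3 to 7 for retinoic acid, 2 to 7 for flanking genes and 5 to 12 for Trithorax and Polycomb genes. CYP26A1, not called, turned to -0.17 without first-table WT and -0.09 without first-table SNAI1_KO_2, and its range over the omissions was -0.17 to 0.25. Over 44 single genes and 681 alternatives, 477 kept direction and side of the threshold, 202 lost the call in the same direction and 2 reversed. Of those 202, 30 were called genes with a log2 difference under 1, which the requirement of at least 1 removed by definition. The cause of the other changes was not tested, and each omission also left fewer libraries. FPKM tables without counts set no depth limit that could be computed.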
